A study of Mus musculus with 23 samples.

Results

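The 45 genes described here encode the proteasome and the factors bound to it, and all 45 were found by gene symbol among the 35825 genes of the table. They were grouped by role into the 7 genes of the 20S alpha ring, the 7 constitutive genes of the 20S beta ring, the 5 genes of the immunoproteasome (Psmb8, Psmb9, Psmb10, Psme1 and Psme2), the 6 ATPases and 4 other genes of the 19S base, 8 genes of the 19S lid, the activators Psme3 and Psme4, 4 assembly chaperones and the deubiquitinases Uchl5 and Usp14. All 45 passed the filter on low values, which kept 17102 genes. RNA-seq was performed on GFP+ microglia sorted from mouse retinas in 23 libraries, each made from retinas of several mice of the same genotype and condition. All mice carried the CX3CR1-GFP knock-in, an allele in which GFP takes the place of the fractalkine receptor gene, expressed in microglia and related myeloid cells. The study crossed heterozygous carriers with Spp1 knockout mice, and the knock-in copies in each library are not given in the sources used here. WT mice had an intact Spp1 gene, and KO mice were homozygous for a deletion of Spp1 in all tissues, the gene for the secreted protein osteopontin. Untreated (naive) retinas gave 4 WT and 4 KO libraries, retinas taken 4 weeks after elevation of the intraocular pressure (IOP) with microbeads gave 4 and 4, and retinas taken 7 days after optic nerve crush (ONC) gave 3 and 4. Recovered from the table, 22180480 to 30296094 reads per library fell on genes. Values are normalized counts, that is, reads divided by a size factor of each library. Their totals were 20851661 to 37006393 per library, so they are not shares of a library. Ages of the mice are not given in the sources used here, and both sexes were used in equal numbers. The study asked, among other things, whether loss of Spp1 affects the ubiquitin-proteasome system of microglia.

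The proteasome degrades proteins tagged with ubiquitin. Its 20S core is a barrel in which outer rings of alpha subunits control entry and inner rings of beta subunits cut, and the 19S cap recognizes, unfolds and feeds in the substrate. In immune cells, and in other cells after exposure to interferon, the catalytic subunits β5i (Psmb8), β1i (Psmb9) and β2i (Psmb10) take the places of β5 (Psmb5), β1 (Psmb6) and β2 (Psmb7), and the PA28 activator (Psme1 and Psme2) can replace the cap. The resulting immunoproteasome yields peptides suited to presentation on major histocompatibility complex (MHC) class I molecules. Microglia are the resident immune cells of the retina and express these genes constitutively.

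The start regions of some genes that the results turn on are shown with matches to the motifs searched. Each line gives 120 bases before and 30 bases after the RefSeq transcription start on GRCm38.p6, read 5′ to 3′ on the strand of the gene. Capitals mark matches, on either strand, to an interferon-gamma activated element (GAS, TTCNNNGAA), the core of an interferon-stimulated response element (ISRE, written as GAAA, then 2 bases of any kind, then GAAA), an antioxidant-type element (ARE, TGACNNNGC) of the kind bound by NRF1 and NRF2, and a CCAAT box (CCAAT). The regions lie at chr17:34198075-34198224 (Psmb8, plus strand), chr17:34187301-34187450 (Psmb9, minus strand, next to the divergent Tap1 gene), chr14:55578374-55578523 (Psme1, plus), chr14:54617966-54618115 (Psmb5, minus), chr11:70525237-70525386 (Psmb6, plus) and chr1:143777158-143777307 (Uchl5, plus). By the GENCODE M21 annotation of GRCm38, Psmb8 (chr17:34197721-34201454) and Psmb9 (chr17:34181987-34187764) flank Tap1, Psme1 (chr14:55578123-55581529) and Psme2 (chr14:55587441-55591113) lie close to each other, and Psmb10 lies at chr8:105935735-105938444. The regions shown for Psmb8, Psmb9 and Psme1 lie inside these annotated bounds and not at their outer ends.
Psmb8: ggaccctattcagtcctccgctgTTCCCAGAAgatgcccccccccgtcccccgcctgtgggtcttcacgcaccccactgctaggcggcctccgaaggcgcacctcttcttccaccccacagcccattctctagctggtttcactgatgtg
Psmb9: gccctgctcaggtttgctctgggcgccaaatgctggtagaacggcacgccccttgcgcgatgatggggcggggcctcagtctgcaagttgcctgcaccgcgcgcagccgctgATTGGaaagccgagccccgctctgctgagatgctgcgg
Psme1: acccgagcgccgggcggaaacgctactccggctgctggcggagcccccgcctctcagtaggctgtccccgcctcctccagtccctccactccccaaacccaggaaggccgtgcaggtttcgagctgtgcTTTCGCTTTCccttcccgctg
Psmb5: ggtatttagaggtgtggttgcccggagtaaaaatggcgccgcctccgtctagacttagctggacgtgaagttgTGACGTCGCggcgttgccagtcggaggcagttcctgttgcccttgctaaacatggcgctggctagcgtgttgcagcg
Psmb6: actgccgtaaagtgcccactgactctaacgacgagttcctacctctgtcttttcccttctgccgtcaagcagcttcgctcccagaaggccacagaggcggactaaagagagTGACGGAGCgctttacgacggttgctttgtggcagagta
Uchl5: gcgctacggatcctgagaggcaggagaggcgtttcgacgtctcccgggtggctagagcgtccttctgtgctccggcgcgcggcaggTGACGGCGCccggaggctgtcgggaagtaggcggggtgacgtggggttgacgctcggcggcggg
The GAS match of Psmb8 began 97 bases before the start, and the ISRE core of Psme1 lay on the opposite strand with its first base 10 bases into the transcript. The ARE matches of Psmb5, Psmb6 and Uchl5 began 47, 9 and 34 bases before the start. No motif searched was found in the 300-base windows of Psmb10 and Psme2, and only the CCAAT box in that of Psmb9. Of the 38 members with such a window (250 bases before to 50 after the start), 8 held the ARE letters, 0 of the 5 immunoproteasome genes and 8 of the 33 others. By gene, the share was 13.99% of the 27025 genes with a window, and 12.4% of all 32851 windows. The GAS letters occurred in 2 members (Psmb8 and Psmd2) and 9.55% of all genes (8.30% of windows), the ISRE core in 4 (Psme1, Psmb3, Psmd4 and Psmd9) and 3.99% (3.44%), and the CCAAT box in 14 and 41.1% (37.4%). A match describes the letters of a window and does not show that a factor binds there.

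Before the comparisons, the targeted gene and the purity of the sort were examined. Spp1 was at 334 to 1518 normalized counts in naive WT, 1343 to 2772 in WT IOP and 14557 to 22906 in WT ONC libraries. In 6 of the 12 libraries labelled KO its value was at or above the lowest naive WT library. These were KO naive replicate 1 at 350.2, KO IOP replicates 2 and 4 at 811 and 761, and KO ONC replicates 1, 2 and 4 at 4750.3, 6811 and 6226. A value per gene cannot tell transcripts of a deleted allele from those of an intact one, so KO is used below as the label of a library, and the comparisons of members are also given without these 6 libraries, called below those with high Spp1. Cx3cr1, which the GFP allele disrupts, was at 952 to 1233 in the 4 KO IOP libraries and at 9417 to 67878 in the other 19, and this difference between KO IOP and all other groups cannot be told apart from the condition. The microglial marker P2ry12 was at 40150 to 59142 in KO IOP and at 17495 to 70733 in the other 19. The part of the Cx3cr1 difference in the comparisons with KO IOP was not tested. All 16 microglial markers were above 0 in every library and their summed level was 1.79 to 5.59% of the total, while 14 rod photoreceptor markers were also above 0 throughout at 0.572 to 4.03%. In KO naive replicates 1, 2 and 4 the microglial list was at 1.79 to 2.37% and the rod list at 3.39 to 4.03%, against 5.13% and 1.29% in replicate 3 and 4.21 to 5.26% and 1.61 to 1.99% in naive WT. WT IOP replicates 1 and 4 stood apart in the same way (microglia 2.78 and 3.04%, rods 2.76 and 2.99%) and held 0.874 and 0.949% lens transcripts. WT IOP replicates 2 and 3 held 0.184 and 0.128%, and every library outside WT IOP held 0.0188% or less. All WT IOP libraries thus differed from the other groups in lens transcripts, and the part of this in the comparisons with WT IOP was not tested. In pooled cells of this kind, fewer cells of a type and less RNA per cell cannot be told apart.

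In naive WT microglia the proteasome genes were expressed at levels that differed widely between genes and little between libraries. Together they held 0.488 to 0.529% of the normalized total, and the 5 immunoproteasome genes held 0.0490 to 0.0551%. Per kilobase of transcript the highest levels were those of the catalytic subunits Psmb6 (5384 ± 173, SD, n = 4) and Psmb5 (3987 ± 243) and of the structural beta subunit Psmb3 (3696 ± 259). The lowest were those of the nuclear activator Psme4 (79.8 ± 12.1) and of the base chaperones Psmd9 (308 ± 47.1) and Psmd10 (546 ± 66.4), the latter also known as the oncoprotein gankyrin. Psmb8 was the fifth highest gene at 3228 ± 105 per kilobase, Psme1 the tenth at 2670 ± 66.1 and Psme2 the thirteenth at 2469 ± 280. Psmb10 at 1080 ± 39.3 ranked 32nd and Psmb9 at 811 ± 127 ranked 39th, so that the inducible catalytic subunits differed in level before any injury. Psmb10 and its constitutive counterpart Psmb7 (999 ± 63.2) differed by less than the sum of their SDs, whereas Psmb9 was far below Psmb6.

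**Figure D1:**
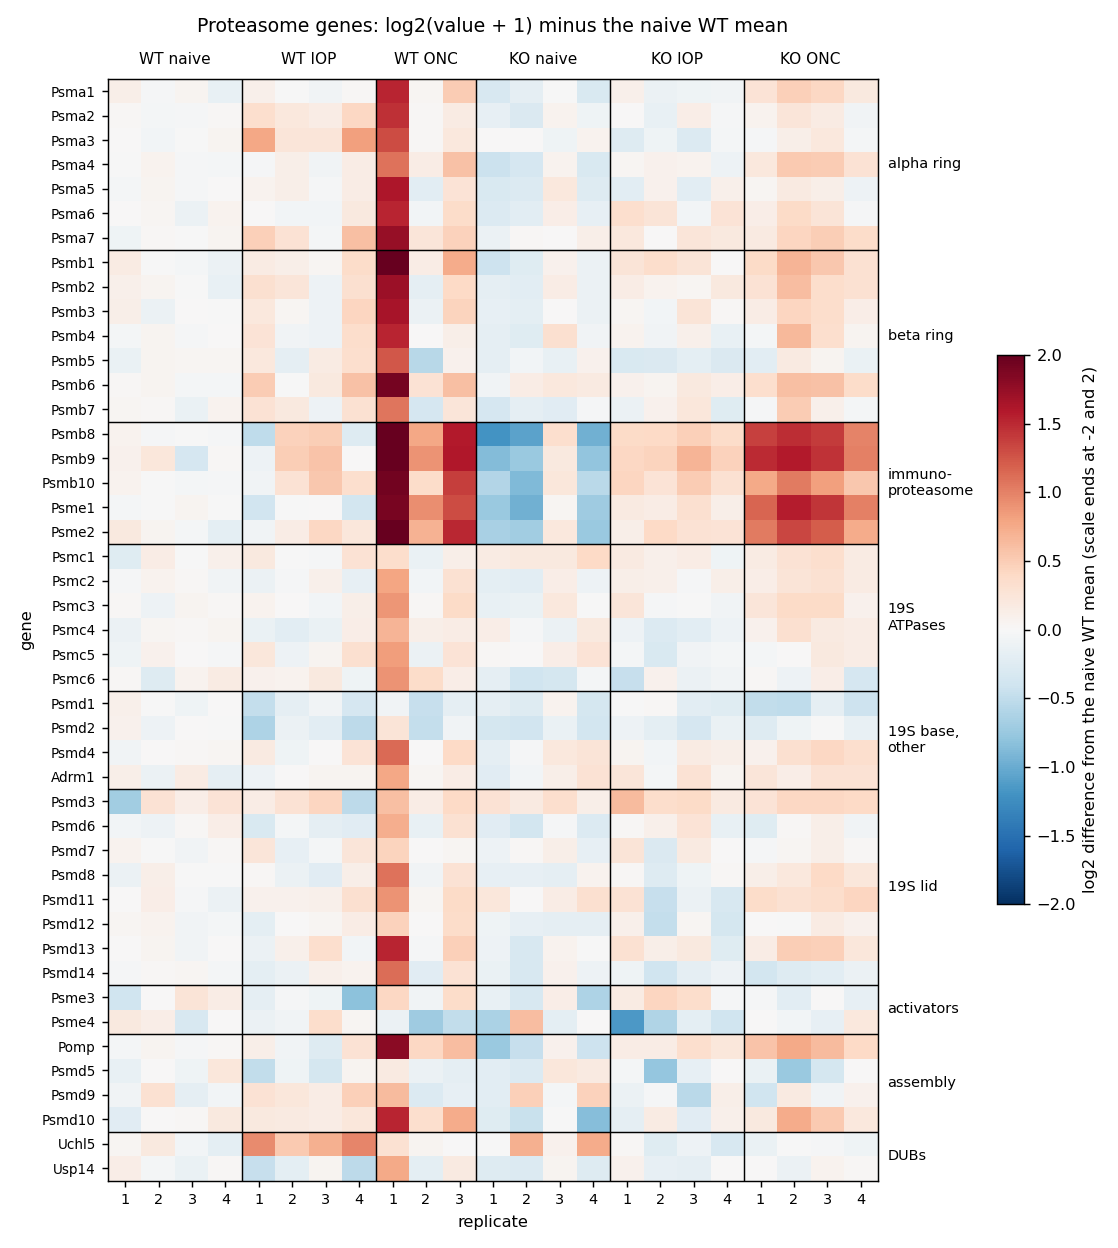
Log2(normalized count + 1) of each of the 45 genes (rows, grouped by role) in each of the 23 libraries (columns, numbered by replicate within the 6 groups), minus the mean of the 4 naive WT libraries, with red above and blue below that mean and colours ending at -2 and 2. The 5 immunoproteasome genes are red in all 7 ONC libraries and blue in KO naive replicates 1, 2 and 4, and WT ONC replicate 1 is the highest of its group for all 45 genes.

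After ONC, WT microglia held more normalized counts of the immunoproteasome, and 2 of the 3 libraries also held more of most other proteasome genes. Normalized totals were 25524043 to 37006393 in WT ONC and 24001958 to 25854185 in naive WT, so counts and shares can differ. The 45 genes held 0.844, 0.511 and 0.536% of the total in WT ONC replicates 1 to 3 (0.488 to 0.529% in naive WT). The 5 immunoproteasome genes held 0.189, 0.0872 and 0.114% (0.0490 to 0.0551%), and the other 40 were not summed alone. Of the 45 members, 43 were above the naive WT mean in replicate 1, 25 in replicate 2 and 39 in replicate 3. All 5 immunoproteasome genes rose against naive WT, with log2 fold changes from 1.22 to 1.72. Among the other 40 genes, 7 rose (Psma1, Psma4, Psma7, Psmb1, Psmb6, Pomp and Psmd10) and 0 fell. The 12 members called higher compare with 7.55% of all genes tested that were called higher in this comparison. In either direction 18.1% of the genes were called. Here and below, a gene was called when its adjusted p was below 0.05 and its log2 fold change above 0.58 or below -0.58. These limits follow the methods of the study.

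Psmb8 was at 5509, 5148, 5204 and 5162 normalized counts in the 4 naive WT libraries and at 29886, 8937 and 15750 in the 3 WT ONC libraries. The groups did not overlap, and the highest ONC library exceeded the lowest by more than the lowest ONC library exceeded the naive ones. The fitted log2 fold change was 1.62 (SE 0.34, adjusted p = 0.00228). Psmb9, which replaces the subunit that cuts after acidic residues, was at 1156, 1269, 862 and 1099.5 in naive WT and at 6872, 2016 and 3280.1 after ONC (log2 fold change 1.72, SE 0.31, adjusted p = 0.000536). Psmb10 was at 1490.5, 1405, 1372 and 1397 in naive WT and at 5378, 1819 and 3693 after ONC (1.22, SE 0.27, adjusted p = 0.00336). In both genes every ONC library lay above every naive library, replicate 1 being the highest and replicate 2 the lowest.

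The PA28 genes followed the same order. Psme1 (PA28α) was at 2894, 2954, 3070 and 2957 in naive WT and at 11069.7, 5662 and 7335 in WT ONC (log2 fold change 1.38, SE 0.22, adjusted p = 0.000151). Psme2 (PA28β) was at 2693, 2460.3, 2292 and 2056 in naive WT and at 16649, 3818 and 6754 in WT ONC (1.67, SE 0.32, adjusted p = 0.000882). Psme2 has a near-identical copy, Psme2b (99.4% over 794 bases), whose mean value was 9.73% of that of Psme2, so reads of both cannot be told apart with certainty. Psmb9 shares 212 exon bases with Tap1 on the opposite strand, 5.79% of its exon sequence. Psmb7 shares more with Nek6 on the opposite strand (405 bases, 11.8%), and the mean value of Nek6 was 226% of that of Psmb7. Opposite-strand overlaps were also larger for Psmc3 with Slc39a13 (8.25%), Psmd13 with Sirt3 (10.1%) and Usp14 with Thoc1 (25.99%). The strand setting of the counting is not given in the sources used here. The part of these overlaps in the values, and in the Psmb10/Psmb7 ratio below, was not tested.

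The constitutive partners moved less. Psmb5, which carries the chymotrypsin-like activity, was at 3258, 3727, 3685 and 3666 in naive WT and at 8509, 2438 and 3795 in WT ONC (log2 fold change 0.26, 95% interval -0.26 to 0.78, adjusted p = 0.492). The groups overlapped, as they did for Psmb7, the gene of the trypsin-like subunit, at 1051 to 1213 in naive WT and 916 to 2421 after ONC (0.32, interval -0.15 to 0.80, adjusted p = 0.334). Psmb6 rose from 4168 to 4466 in naive WT to 16152, 5246 and 6545 in WT ONC (0.94, SE 0.24, adjusted p = 0.0105). Pomp, the chaperone of core assembly, was at 3143 to 3357 in naive WT and at 11307, 4342 and 4977 in WT ONC (0.95, SE 0.24, adjusted p = 0.00861). Psmd10, which helps to assemble the base, was at 660.5 to 892 in naive WT and at 2247, 978 and 1302 in WT ONC (0.87, SE 0.24, adjusted p = 0.0143). The alpha subunits Psma1, Psma4 and Psma7 rose by log2 fold changes of 0.69, 0.60 and 0.82 and the beta subunit Psmb1 by 0.96, with adjusted p of 0.0134 to 0.0279. The lowest values were those of Psme4 (-0.44, adjusted p = 0.259) and of the large scaffold subunits of the base, Psmd1 (-0.23, adjusted p = 0.255) and Psmd2 (-0.09, adjusted p = 0.708), none of them called. None of the 6 ATPases and none of the 8 lid genes was called, with medians of 0.34 and 0.39. The median over all genes tested, at every level above the filter, was -0.10, and genes of similar level were not compared.

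WT ONC replicate 1 exceeded the mean of the other 2 WT ONC libraries (on log2 values) for 45 of 45 members. The median log2 difference was 0.93. Over all genes tested the median was -0.10, and 44.5% of them were higher in replicate 1. All genes tested span every level above the filter, and genes of a level like the members were not compared. The normalized total was 37006393 in replicate 1, against 25524043 and 32229821 in replicates 2 and 3. The excess of the members differed by role. It was largest in the core particle, at a median of 1.48 for the constitutive beta ring (1.11 for Psmb7 to 1.61 for Psmb2), 1.36 for the alpha ring (0.72 for Psma4 to 1.59 for Psma5) and 1.33 for the immunoproteasome (0.78 for Psme1 to 1.71 for Psme2). In the 19S ATPases, other base genes and lid the medians were 0.66, 0.60 and 0.67, although the lid subunit Psmd13 reached 1.30, and the 2 activators Psme3 and Psme4 differed by 0.25 and 0.47. The proteasome genes held 0.844% of the total in this library and 0.511 and 0.536% in the other 2, with rod lists at 0.572% in replicate 1, 2.04% in replicate 2 and 0.667% in replicate 3. What sets this library apart was not tested. Other marker lists also moved with WT ONC. The 10 genes of monocytes and border macrophages summed to 0.0100 to 0.0159% of the total against 0.0487 to 0.102% in naive WT, without overlap, and the 10 of Muller glia and astrocytes to 0.177 to 1.02% against 0.855 to 1.49%. In KO ONC the former was at 0.0212 to 0.0604% against 0.0358 to 0.0798% in KO naive, with overlap. Their part in the differences was not tested.

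Without WT ONC replicate 1, exactly the 5 immunoproteasome genes were called higher in WT ONC and 0 of the other 40, while 8.53% of all genes were still called in either direction. Their log2 fold changes were then 1.17 (Psmb8), 1.24 (Psmb9), 0.87 (Psmb10), 1.12 (Psme1) and 1.10 (Psme2), with adjusted p from 0.00195 to 0.0438. The median of the other 40 genes fell to 0.11 from 0.41. Pomp (0.52, adjusted p = 0.0851) and Psmb6 (0.45, adjusted p = 0.0791) were among the 7 that no longer passed. Without WT ONC replicate 2, which had the highest rod list of the 3, 27 members were called higher, and 30.5% of all genes in either direction.

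**Figure D2:**
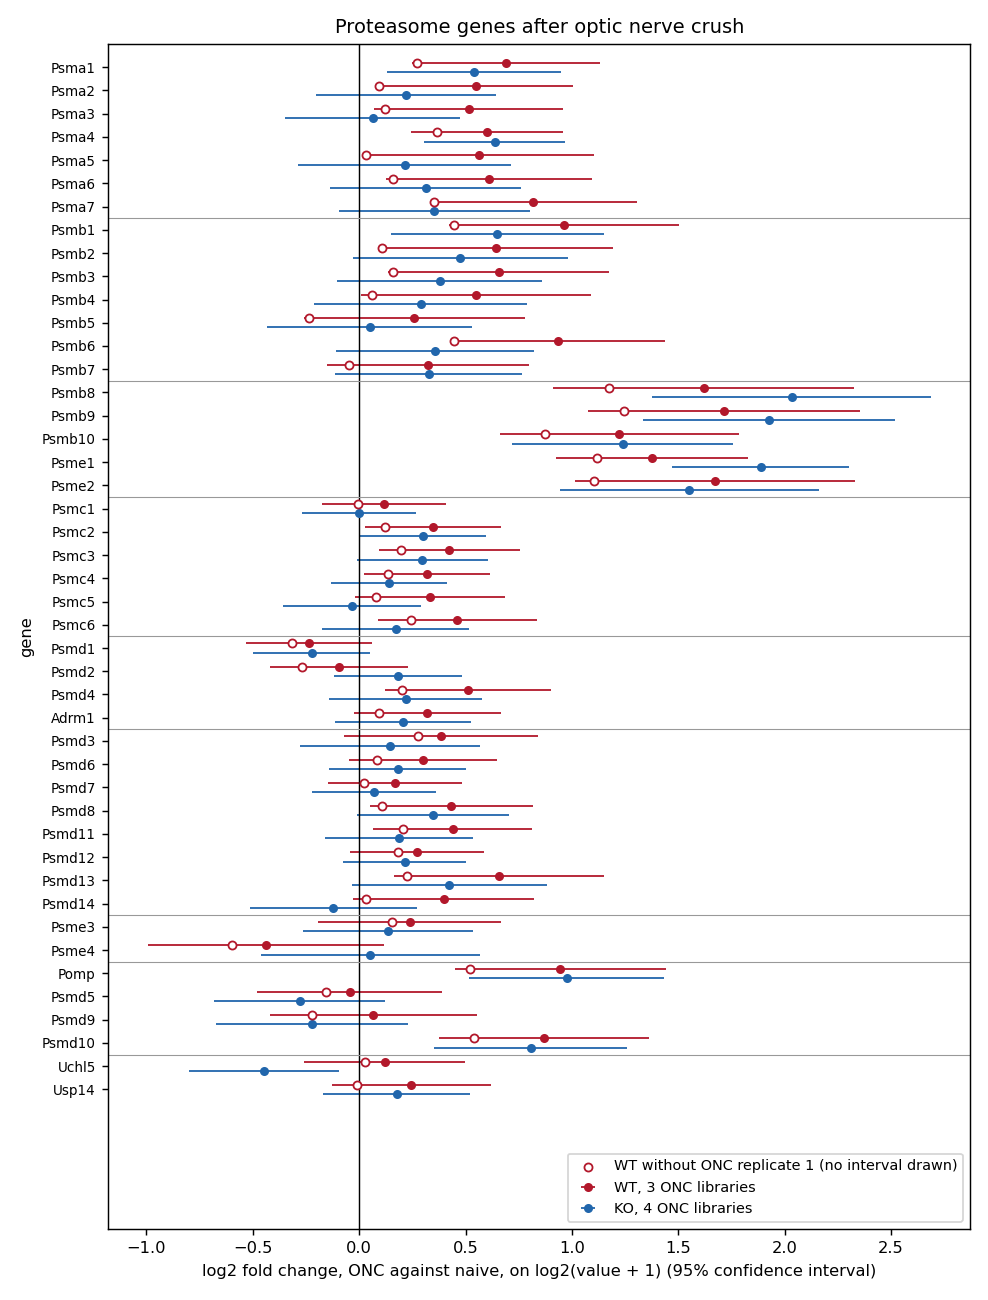
Log2 fold changes on log2(normalized count + 1) of ONC against naive libraries (x axis) for the 45 genes (y axis, grouped by role), in WT (red) and in the libraries labelled KO (blue), with 95% confidence intervals, and in WT without ONC replicate 1 (open circles). The 5 immunoproteasome genes stand to the right in both genotypes, and the open circles of most other genes lie near 0.

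In the libraries labelled KO, the immunoproteasome genes also rose after ONC, with smaller differences in the rest of the proteasome (33 of the other 40 positive, median 0.21). All 5 were called, with log2 fold changes from 1.24 to 2.03, and of the other 40 only the alpha subunit Psma4 (0.64), Pomp (0.98) and Psmd10 (0.81) were called, with 0 members lower. Without overlap between the groups, 17 members were higher and 1 lower, 12 of the 17 outside the immunoproteasome, against 13.4% and 13.1% of all genes. The 8 called higher compare with 12.7% of all genes called higher and 23.6% called in either direction.

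Psmb8 was at 2292, 2499, 6640.4 and 2709 in KO naive and at 13583, 14690.5, 13830.1 and 10487 in KO ONC (log2 fold change 2.03, SE 0.32, adjusted p = 0.000121). Psmb9 was at 598, 651, 1249 and 626 in KO naive and at 3066, 3249, 2962 and 2174 in KO ONC (1.93, SE 0.29, adjusted p = 7.85e-05). Psme1 was at 1783, 1526, 3038 and 1820.5 in KO naive and at 6643, 8860.4, 8018 and 5971 in KO ONC (1.89, SE 0.20, adjusted p = 3.26e-06). In these 3 genes every ONC library lay above every naive library, and KO naive replicate 3 was the highest naive library by a wide margin. Psmb10 rose from 764 to 1661 in KO naive to 2059 to 2924 in KO ONC (1.24, SE 0.25, adjusted p = 0.00120), and Psme2 from 1413 to 2735 to 3971 to 5980.2 (1.55, SE 0.29, adjusted p = 0.000683). The partners Psmb5 (0.05, interval -0.43 to 0.53), Psmb6 (0.36, interval -0.11 to 0.82) and Psmb7 (0.33, interval -0.11 to 0.77) were not called. The lowest members, also not called, were Uchl5 (-0.45, adjusted p = 0.0582), the base chaperone Psmd5 (-0.28, adjusted p = 0.304) and Psmd1 (-0.22, adjusted p = 0.223). With the rod list as a covariate Psmb8, Psmb9 and Psme1 were still called, and with the microglia list as a covariate 1 member was, Psme1.

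The naive KO baseline set the size of these differences. With KO naive replicate 3 as the only naive KO library, the one whose marker lists resembled naive WT, 0 members were called (4 at an unadjusted p under 0.05, limma) and the median of the 5 immunoproteasome genes was 0.97 in place of 1.89, with 0.433% of all genes called. Psme1 was then at 1.26 (adjusted p = 0.0501) and Psmb8 at 0.97 (adjusted p = 0.391), from 1 naive library that is assumed to vary like the other groups. Without the 6 libraries labelled KO with high Spp1, 1 KO ONC library remained and Psme1 alone was called (1.98, adjusted p = 0.0278), with the median of the 5 genes at 1.89 and 1.11% of all genes called.

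Between the libraries labelled KO and WT after ONC, 0 of the 45 genes were called, where 0.0877% of all genes were (3 members and 9.36% of all genes at an unadjusted p under 0.05 by limma, 0 called by edgeR and by DESeq2). The immunoproteasome genes differed by -0.31 (Psmb8, interval -1.02 to 0.40), -0.33 (Psmb9, -0.97 to 0.30), -0.43 (Psmb10, -0.99 to 0.13), -0.08 (Psme1, -0.53 to 0.37) and -0.59 (Psme2, -1.25 to 0.07). The intervals leave room for falls of about the size of the threshold or more. In all, 43 members were lower in KO and 2 higher, with a median of -0.26, and the lid deubiquitinase Psmd14 (-0.63, adjusted p = 0.316), Psme2 and the ATPase Psmc6 (-0.53, adjusted p = 0.341) were lowest. Psme4 was highest at 0.44 (adjusted p = 0.655), followed by the ATPase Psmc1 at 0.12 and the lid subunit Psmd3 at -0.01. This direction rested on WT ONC replicate 1. Without it, 33 members were higher in KO and 12 lower, with a median of 0.05, 0 members and 0.0117% of all genes called, and without WT ONC replicate 2 there were 6 called lower in KO (Psma1, Psma5, Psmb1, Psmb10, Psme2 and Psmd14) where 4.35% of all genes were called. Leaving out the 6 libraries labelled KO with high Spp1 gave 0 members called, 0.0117% of all genes called and a median of -0.20. In the interaction of genotype with ONC, 0 members were called (1 member and 12.4% of all genes at an unadjusted p under 0.05, 0 members called by edgeR and by DESeq2), against 0.0702% of all genes. Without the 6 libraries the count was also 0, with 0.00585% of all genes called.

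**Figure D3:**
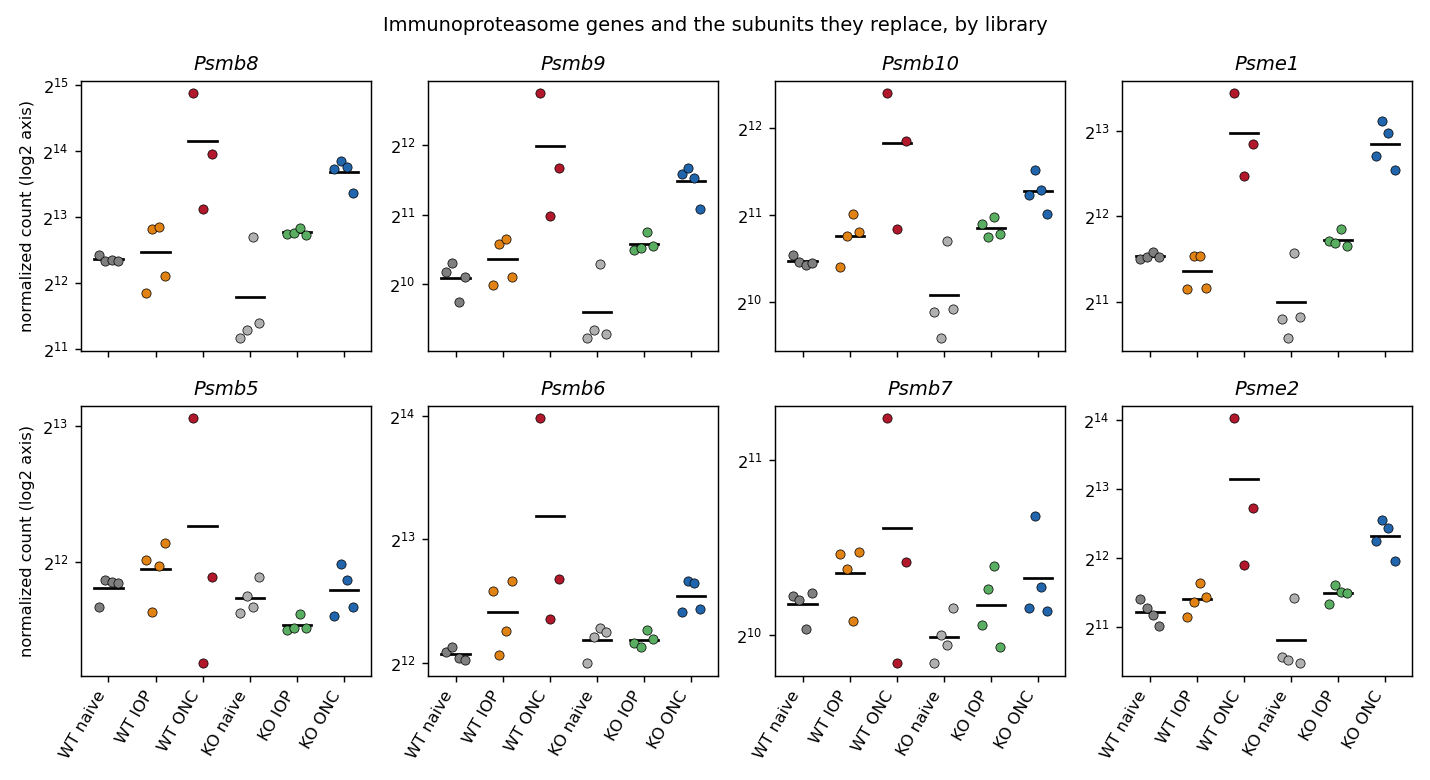
Normalized counts (log2 axis, 1 panel per gene) of the 5 immunoproteasome genes and of Psmb5, Psmb6 and Psmb7 in the 23 libraries, with 1 point per library, colours for the 6 groups and a line at the group mean. For all 5 immunoproteasome genes each ONC library lies above each naive library of its genotype, while Psmb5 and Psmb7 overlap between those groups, and KO naive replicate 3 lies apart from the other 3 KO naive libraries in the 5 immunoproteasome panels.

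Ratios within a library compare each immunoproteasome subunit with the subunit it replaces, so that a factor common to both drops out. They are ratios of normalized counts, not of molecules, since the transcripts differ in length. Psmb8/Psmb5 was 1.69, 1.38, 1.41 and 1.41 in naive WT and 3.51, 3.66 and 4.15 in WT ONC. WT ONC replicate 1, which stood apart in the levels of both genes, did not stand apart in their ratio. In KO ONC the ratio was 4.38, 3.62, 3.70 and 3.23, and in KO IOP it was 2.38, 2.37, 2.32 and 2.31, the narrowest spread of the 6 groups. KO naive replicate 3 had a ratio of 2.05 and the other 3 KO naive libraries 0.726, 0.726 and 0.716, a split that followed the microglial and rod lists. In WT IOP, replicates 1 and 4 were at 0.899 and 0.980 and replicates 2 and 3 at 2.28 and 1.84.

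The geometric mean of the Psmb8/Psmb5 ratio was 2.57-fold higher in WT ONC than in naive WT without overlap (p = 0.0571 in a two-sided exact permutation test, which cannot go lower with 3 and 4 libraries). In libraries labelled KO the factor was 3.96 after ONC (p = 0.0286 in the same exact test, its lowest possible value with 4 and 4 libraries) and 2.50 after IOP elevation (p = 0.0286 in the same exact test). Of these libraries, those left without high Spp1 were KO ONC replicate 3 at 3.70, KO IOP replicates 1 and 3 at 2.38 and 2.32, and KO naive replicates 2, 3 and 4 at 0.726, 2.05 and 0.716, again without overlap and not tested. Psmb9/Psmb6 was 0.205 to 0.284 in naive WT and 0.384 to 0.501 in WT ONC, and 0.129 to 0.251 in KO naive and 0.391 to 0.563 in KO ONC, each without overlap. Psmb10/Psmb7 was 1.15 to 1.31 in naive WT and 1.99 to 2.69 in WT ONC, and 0.746 to 1.69 in KO naive and 1.78 to 2.10 in KO ONC. After ONC the ratios of KO and WT libraries overlapped for all 3 pairs, with KO to WT factors of 0.985, 1.09 and 0.843 (exact permutation tests, two-sided, p = 0.914, 0.457 and 0.171). After IOP elevation Psmb8/Psmb5 was 1.69-fold higher in KO than in WT libraries without overlap (two-sided exact permutation test, p = 0.0286), the factors for Psmb9/Psmb6 and Psmb10/Psmb7 being 1.38 and 1.22 with overlap (p = 0.371 and 0.200 in the same exact test). After Benjamini-Hochberg adjustment over the 21 tests of 3 pairs in 7 comparisons the lowest value was 0.1, so 0 of the ratios passed a threshold of 0.05, as this design hardly allows.

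**Figure D4:**
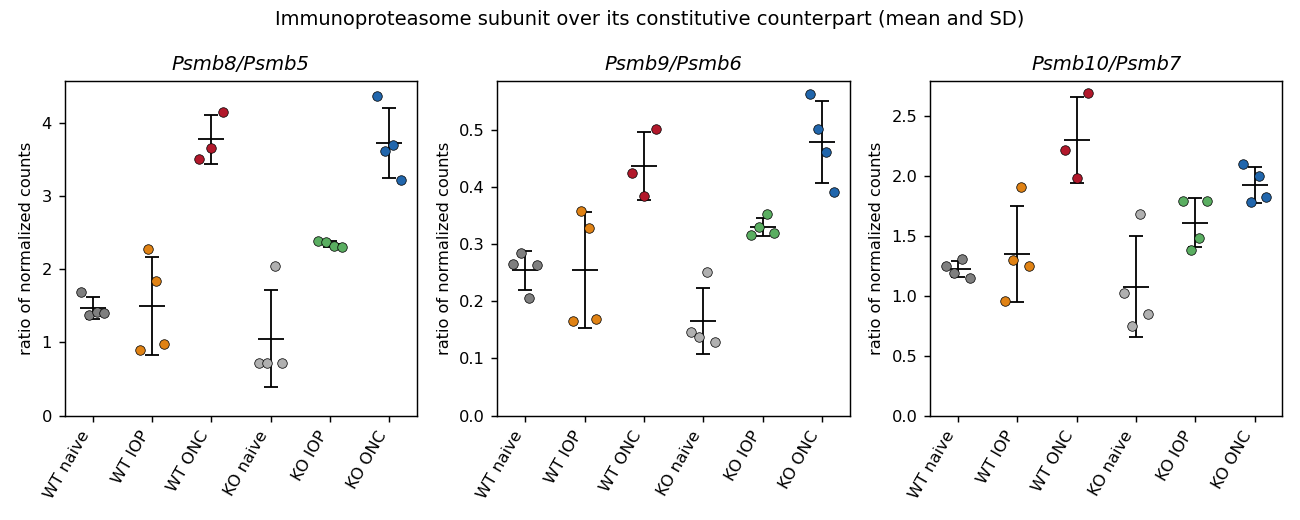
Ratio of normalized counts of each immunoproteasome subunit to its constitutive counterpart (y axis, 1 panel per pair) in the 6 groups, with 1 point per library and the mean with SD in black. All 3 ratios are higher in every ONC library than in every naive library of the same genotype, and KO naive replicate 3 and WT IOP replicates 2 and 3 lie above the other libraries of their groups for Psmb8/Psmb5.

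After IOP elevation the WT libraries showed no call among the immunoproteasome genes. The 1 proteasome gene called was Uchl5, a deubiquitinase that trims ubiquitin chains on the 19S cap. In all, 33 of the 45 members were positive, with a median of 0.07. The 1 member called higher compares with 0.842% of all genes called higher and 1.56% called in either direction. The 5 immunoproteasome genes differed by -0.19 (Psme1) to 0.27 (Psmb10), with adjusted p of 0.687 or more. WT IOP was a mixed group for them. Psmb8 was at 3704, 7216, 7370.2 and 4409, and the low values were those of replicates 1 and 4, with the low microglial lists. Without those 2 libraries the median of the 5 genes was 0.41 in place of 0.18, still with 0 called (0 at an unadjusted p under 0.05).

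Uchl5 was at 1253, 1387, 1175 and 1064 in naive WT, at 2342, 1753, 1980.2 and 2378 in WT IOP, and at 1237, 1026, 1127 and 969 in KO IOP. Every WT IOP library lay above every naive WT and every KO IOP library. It rose in WT IOP against naive WT (log2 fold change 0.79, SE 0.17, adjusted p = 0.0175) and was the 1 member called between KO and WT after IOP elevation, where it was lower in the libraries labelled KO (-0.95, SE 0.17, adjusted p = 0.00419) and 1.64% of all genes were called lower (2.11% in either direction). The interaction of genotype with IOP elevation was -1.33 (SE 0.24, adjusted p = 0.00391). KO naive replicates 2 and 4 were at 1996 and 2024 and replicates 1 and 3 at 1207 and 1295, so KO naive overlapped WT IOP. Values in the 7 ONC libraries were 1109 to 1498. WT IOP replicates 1 and 4 and KO naive replicates 2 and 4, which had the 4 highest Uchl5 values, also had rod lists of 2.76, 2.99, 3.62 and 4.03%, but KO naive replicate 1 with 3.39% was at 1207. Every WT IOP library also held more lens transcripts than any library of the other groups, and the part of this in the Uchl5 differences was not tested. With the rod list as a covariate Uchl5 was still called between KO and WT after IOP elevation (-0.82, adjusted p = 0.0345) and in WT IOP against naive WT (0.72, adjusted p = 0.0182), but not in the interaction (-1.10, adjusted p = 0.0693). Without WT IOP replicates 1 and 4 it was not called (-0.78, adjusted p = 0.199 between KO and WT, and 0.62, adjusted p = 0.380 against naive WT), with 0.170 and 0.0877% of all genes called. With 1 library left out, the call against naive WT was lost in 4 of 8 fits and that between KO and WT was kept in all 8. Without the 6 libraries labelled KO with high Spp1 the difference between KO and WT was -0.83 (adjusted p = 0.108), with 0.626% of all genes called, and the interaction -1.34 (adjusted p = 0.0464), with 0.842% called.

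**Figure D5:**
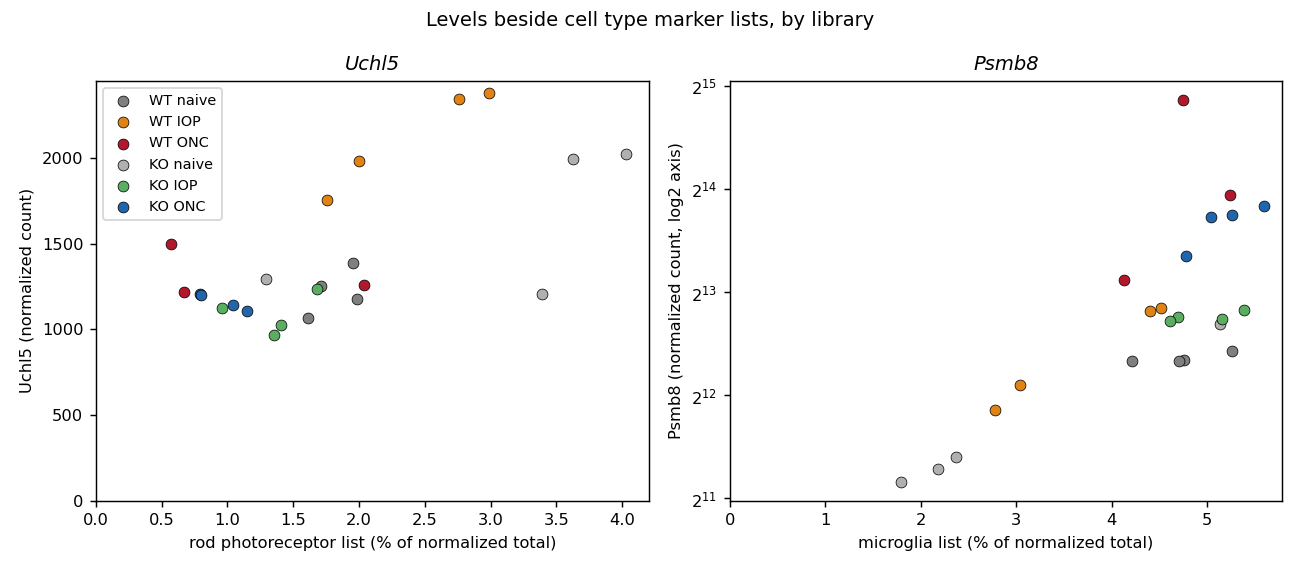
Normalized count of Uchl5 against the rod photoreceptor list (left) and of Psmb8 on a log2 axis against the microglia list (right), both lists as percent of the normalized total, with 1 point per library and colours for the 6 groups. The 4 highest Uchl5 values belong to libraries with rod lists of 2.76% or more, and the 5 libraries with microglia lists of 3.04% or less have the 5 lowest Psmb8 values.

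The other members at the ends of the range in WT IOP against naive WT were Psma3 (0.52, adjusted p = 0.235) and Psma7 (0.33, adjusted p = 0.542) on the high side, and Psmd2 (-0.37, adjusted p = 0.259), the deubiquitinase Usp14 (-0.28, adjusted p = 0.492) and Psme3 (-0.27, adjusted p = 0.578) on the low side. Among the remaining genes after IOP elevation, the alpha subunit Psma3 came next to Uchl5 in both comparisons. It was at 6721, 4639, 4654 and 6928 in WT IOP and at 3258, 3695, 3249 and 3817 in KO IOP, without overlap (-0.69, SE 0.20, adjusted p = 0.0708). Psme4 was lower in KO IOP by 0.63 on the log2 scale (adjusted p = 0.157), and Psme3, the activator of nuclear proteasomes, was higher by 0.51 (adjusted p = 0.148), both without passing. The immunoproteasome genes differed between KO and WT after IOP elevation by 0.36 (Psmb8, interval -0.30 to 1.01), 0.25 (Psmb9), 0.10 (Psmb10), 0.38 (Psme1) and 0.10 (Psme2), and 0 were called. Their constitutive partners were at -0.40 (Psmb5), -0.21 (Psmb6) and -0.19 (Psmb7).

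In the libraries labelled KO, 4 of the 5 immunoproteasome genes were called higher after IOP elevation than in naive retinas, and 0 of the other 40 were. The 4 compare with 5.06% of all genes called higher and 7.88% called in either direction. Psmb8 was at 6867, 6922, 7290.4 and 6741 in KO IOP, above each of the 4 KO naive values (log2 fold change 1.13, SE 0.32, adjusted p = 0.0357). Psmb9 was at 1448, 1473, 1734 and 1500.4 (1.05, SE 0.29, adjusted p = 0.0322), Psmb10 at 1906, 1707, 2006 and 1749 (0.83, SE 0.25, adjusted p = 0.0460) and Psme1 at 3363, 3305, 3697 and 3213 (0.78, SE 0.20, adjusted p = 0.0256). Psme2 was at 2577, 3123, 2899 and 2873 and overlapped KO naive (0.74, SE 0.29, adjusted p = 0.108). Psmb5 (-0.20), Psmb6 (0.00) and Psmb7 (0.18) were not called. Uchl5 was lower by 0.55 on the log2 scale with an adjusted p of 0.0495, short of the required size, and Psme4 (-0.53, adjusted p = 0.171) and the lid subunit Psmd11 (-0.33, adjusted p = 0.209) came next. These calls depended on single libraries of both groups. Their count was 0 without KO naive replicate 1, 2 or 4 or without KO IOP replicate 2 or 3, 2 without KO IOP replicate 1 and 1 without KO IOP replicate 4. Against replicate 3 alone 0 were called (0 at an unadjusted p under 0.05, with 0.0585% of all genes called) and the median of the 5 genes was 0.15 in place of 0.83, and without replicate 3 there were 7 called higher (the 5 genes, Psme3 and Pomp) and Uchl5 lower, when 18.6% of all genes were called. With the rod list or the microglia list as a covariate 0 members were called (edgeR without a covariate called Psme1), and without the 6 libraries labelled KO with high Spp1 0 were called (7 at an unadjusted p under 0.05), with 0.0936% of all genes called. Psme1 was also called in the interaction of genotype with IOP elevation (0.97, SE 0.28, adjusted p = 0.0370), one of 2 members called, 1 higher and 1 lower, against 4.85% and 3.90% of all genes (8.75% in all). It was at 2279.9, 2961, 2973 and 2299 in WT IOP, so the low WT IOP libraries and the low KO naive libraries both entered this value. The call was lost in 12 of the 16 fits that left out 1 library (0.85 to 1.18 over all 16), in 5 of 13 other alternatives, among them those with the rod or the microglia list as a covariate (0.28 and 0.22), and without the 6 libraries with high Spp1 (0.98, adjusted p = 0.167).

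In naive retinas 0 members were called between KO and WT, against 0.409% of all genes (4 members and 15.6% of all genes at an unadjusted p under 0.05, 0 called by edgeR and by DESeq2). The 3 lowest values in KO were those of Psmb8 (-0.72, SE 0.32, adjusted p = 0.270), Psme1 (-0.59, SE 0.20, adjusted p = 0.145) and Psmb9 (-0.55, SE 0.29, adjusted p = 0.359), and the 3 highest those of Uchl5 (0.38), Psmc1 (0.24) and Psmd3 (0.23). KO naive replicate 3 was above the mean of the other 3 for all 5 immunoproteasome genes, by 0.83 (Psme1) to 1.41 (Psmb8), and within -0.22 to 0.31 of it for the 6 ATPases. Without replicate 3, Psmb8 (-1.07, adjusted p = 0.0173) and Psme1 (-0.80, adjusted p = 0.00740) were called lower in KO, when 9.49% of all genes were called, while against replicate 3 alone all 5 were positive with a median of 0.21. Without the 6 libraries labelled KO with high Spp1 the median of the 5 was -0.44 with 0 members and 0.00585% of all genes called.

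Genes that work with the immunoproteasome were examined as lists. Of 11 genes of MHC class I peptide loading, 5 rose in WT ONC (H2-K1, Tap1, B2m, H2-D1 and Tapbp), 6 in KO IOP and 10 in KO ONC against naive libraries of the same genotype, and 0 fell, against 7.55%, 5.06% and 12.7% of all genes called higher. Tap1, the peptide transporter whose promoter adjoins that of Psmb9, rose by a log2 fold change of 1.86 in WT ONC (SE 0.28, adjusted p = 9.95e-05) and 1.97 in KO ONC (SE 0.26, adjusted p = 2.71e-05). B2m, the light chain of MHC class I, rose by 1.57 and 2.66. Of 11 genes leading from interferon to the immunoproteasome, 5 rose in WT ONC and 8 in KO ONC, against the same 7.55% and 12.7%, including Stat2 (1.42 and 1.37) and Nlrc5 (1.45 and 1.55), the transactivator of MHC class I genes. In WT IOP, 2 genes of the interferon list rose, among them Irf9 (0.93, adjusted p = 0.0120), against 0.842% of all genes called higher. There 0 of the 5 immunoproteasome genes and 0 of the MHC class I list were called. With the rod or the microglia list as a covariate, 2 and 3 genes of the MHC class I list were called higher in WT IOP, and 0 in KO IOP with either. Against KO naive replicate 3 alone, 1 gene of the MHC class I list and 0 of the interferon list were called in KO ONC and 0 of either in KO IOP. Without the 6 libraries with high Spp1, 3 and 1 were called in KO ONC and 0 in KO IOP, and with the microglia list as a covariate 4 and 2 in KO ONC and 0 in KO IOP. Without WT IOP replicates 1 and 4, 0 genes of either list were called in WT IOP, Irf9 included. The medians of the MHC class I list were 0.68 in WT ONC and 1.20 in KO ONC, against -0.10 and -0.12 over all genes, and the comparisons within a genotype share their naive libraries. Between KO and WT 0 genes of either list were called in any of the 3 conditions, although after IOP elevation 1 gene of the interferon list was called lower with the rod list as a covariate, and 1 higher and 2 lower with the microglia list.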

How the data were processed

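The authors deposited 1 table of normalized counts, reads per gene divided by a size factor per library, which is a signal and not a raw count. The sources name STAR, salmon and DESeq2 without versions, and GRCm38, and paired-end reads of SMARTER libraries. Values were log2-transformed after adding 1 and fitted with limma 3.58.1 (R 4.3.3; empirical Bayes with a trend) over all 23 libraries and 17102 genes with at least 10 in at least 3 libraries, with Benjamini-Hochberg adjustment over all of them, so a fold change is on the log2(value + 1) scale and is understated for low genes. The comparisons were KO against WT in each condition, injury against naive in each genotype, and the 2 interactions. Comparisons that share a group, such as a naive control, are not independent. Mean ± SD and ranges are over libraries.

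Whole reads could be recovered from the deposited values (100% within 0.05 of a whole number), giving 22180480 to 30296094 reads on genes per library (median 26914869), and these recovered counts were used for edgeR 4.0.16 and DESeq2 1.42.0 as alternatives. In 2 libraries, replicates 2 and 4 of KO IOP, size factors lay so near 1 that whole reads and normalized values can hardly be distinguished. A floor of 3 reads was far below every member. All 23 columns were used, 0 libraries were identical, and within-group correlations of log2 values were 0.876 to 0.956. Each library is a pool of mice, and nothing in the sources says that pools of a group share no preparation, so p-values measure the spread between these libraries.

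Gene IDs were matched to GENCODE M21 without version numbers (35436 of 35825). Promoters came from a RefSeq table of GRCm38.p6, which held 38 of the 45 members and not Psmb1, Psmb2, Psmb7, Psmc3, Psmd3, Psmd7 and Usp14. Near-identical copies were searched with BLAST 2.17.0. Ratios were compared by exact permutation (scipy 1.17.1). Named in the text are the immunoproteasome genes and their counterparts, every called member, the 3 highest and 3 lowest members of each comparison and of the naive WT levels, and called genes of the pathway lists, of which some are not reported here. The members and lists were chosen with earlier results of these data known. Scripts were tested on simulated data of KO against WT after IOP elevation. Each of limma, edgeR and DESeq2 missed most of the planted changes there, and DESeq2 had the largest share of false calls. A count of 0 called therefore does not show equal levels. Alternatives were the pseudocount, the filter, rescaling, quantile normalization, covariates for marker lists, the replicate number as a block, the compared groups alone, edgeR, DESeq2 and leaving out libraries. After the group mean of each gene was subtracted from its log2 values, same-numbered libraries of different groups correlated at -0.253 to 0.230. There were 55 pairs (median 0.0046, 10 over 0.1), so the numbers do not pair libraries.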

Additional observations from a re-analysis of the deposited data

Results flagged for a closer look

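Of 240 groups of 4 libraries tested for a single value far from the others, 17 were flagged (7.08%), where chance flags about 1 in 20. KO naive replicate 3 accounted for 8 of them. It was above the other 3 KO naive libraries for Psmb8 (6640.4 against 2292 to 2709 normalized counts), Psmb9 (1249 against 598 to 651), Psme2 (2735 against 1413 to 1504), the alpha subunit Psma5 (2925 against 2052 to 2120), the base scaffold Psmd2 (8374 against 6992 to 7205) and the deubiquitinase Usp14 (3433 against 2711 to 2760.4), and for the ratios Psmb8/Psmb5 (2.05 against 0.716 to 0.726) and Psmb9/Psmb6 (0.251 against 0.129 to 0.146). Its microglia list was at 5.13% of the total against 1.79 to 2.37%, and the part of this in the differences was not tested.

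The other 9 stood alone. KO naive replicate 4 was high for the ATPase Psmc1 (3745 against 3186 to 3244) and the lid subunit Psmd8 (4074 against 3422 to 3449). WT naive replicate 1 was low for Psmb5 (3258 against 3666 to 3727) and high for Psmb8 (5509 against 5148 to 5204) and so for their ratio (1.69 against 1.38 to 1.41). Within KO IOP, replicate 3 was high for Psmb5 (3141 against 2883 to 2920.3) and low for the ATPase Psmc2 (3065 against 3365 to 3398), and replicate 2 was low for the ATPase Psmc5 (3087 against 3597 to 3689.5). WT IOP replicate 4 was high for Psmd11 (2593 against 2209 to 2234).

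The response to IOP elevation differed between libraries labelled KO and WT for Psme1 (interaction 0.97, adjusted p = 0.0370, limma) and Uchl5 (-1.33, adjusted p = 0.00391, limma). With the rod list as a covariate these were 0.28 (adjusted p = 0.672) and -1.10 (adjusted p = 0.0693). Without WT IOP replicates 1 and 4 they were 0.78 (adjusted p = 0.260) and -1.16 (adjusted p = 0.0620).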

How the results depend on the processing

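The 28 fold changes followed by gene were those called in the main fit. They were thus chosen for their size in these same data, and a stable direction was likely beforehand. Their direction stayed the same under every alternative (484 values on the same side of the threshold, 141 no longer past it, 0 reversed), while counts of members called were less stable. The 12 of WT ONC against naive became 7 with the rod list as covariate, 4 with the compared groups alone and 21 with DESeq2, and were 5 to 27 when 1 library was left out, the extremes being without ONC replicates 1 and 2. The 8 of KO ONC became 3 with the rod list, 1 with the microglia list, 0 without KO naive replicates 1, 2 and 4 and 1 without the 6 libraries labelled KO with high Spp1, and were 7 to 10 with 1 library left out. The 4 of KO IOP became 2 without a filter, 1 with edgeR and 0 with either list, with the compared groups alone, without KO naive replicates 1, 2 and 4 and without the 6 libraries, and were 0 to 8 with 1 library left out. In WT IOP the 1 became 0 without replicates 1 and 4 (0 to 1 with 1 left out). Between KO and WT after IOP elevation the 1 became 2 with upper-quartile rescaling, quantile normalization and DESeq2, and 0 without WT IOP replicates 1 and 4 or without the 6 libraries (1 to 2 with 1 left out). For the IOP interaction the 2 became 1 without a filter, with upper-quartile rescaling and with edgeR, 6 with quantile normalization, 0 with either list, 0 without KO naive replicates 1, 2 and 4, 0 without WT IOP replicates 1 and 4 and 1 without the 6 libraries (1 to 4 with 1 left out). KO against WT gave 0 to 2 in naive and 0 to 6 after ONC with 1 library left out. The alternatives that leave out these sets of libraries were chosen after seeing the data, and the cause of these changes was not tested. With the replicate number as a block the counts were unchanged at 12 (WT ONC), 8 (KO ONC), 4 (KO IOP), 2 (IOP interaction), 1 (WT IOP), 1 (KO against WT, IOP) and 0 for the other 3. After subtraction of group means, 7 of 23 libraries correlated best with a library of another group with their own number. Log2 ratios of which some change sign when 1 library is left out were, in WT IOP against naive, Psmb8/Psmb5 (-0.32 to 0.13), Psmb9/Psmb6 (-0.27 to 0.10) and Psmb10/Psmb7 (-0.079 to 0.25), and between KO and WT after ONC, Psmb8/Psmb5 (-0.10 to 0.048). With 3 or 4 pooled libraries per group, Psmb8 differences between KO and WT of about 0.7 on the log2 scale lie within the intervals.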

Other observations

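Genes that supply ubiquitin and shuttle substrates, and proteasome genes outside the 45, were mostly not called. Among 15 genes of ubiquitin supply and shuttling, Nploc4, a cofactor of the segregase p97, rose in WT ONC (log2 fold change 1.71, adjusted p = 0.0297), where 7.55% of all genes were called higher. In KO ONC, Rps27a rose (0.92, adjusted p = 0.0309) and the shuttle factor Ubqln2 fell by 1.69 on the log2 scale (adjusted p = 0.00824). There 12.7% of all genes were called higher and 23.6% in either direction. The interaction of genotype with IOP elevation was called for Ubqln2 (-2.46, adjusted p = 0.0212), where 3.90% of all genes were called lower and 8.75% in either direction. How these KO calls and those below depend on the naive KO libraries or on the KO libraries with high Spp1 is not reported here.

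Of 11 other proteasome genes tested, the small lid subunit Sem1 rose in WT ONC (0.97, adjusted p = 0.0194) and KO ONC (0.94, adjusted p = 0.0114), and Psma8, a testis-type alpha subunit, rose in KO ONC (1.63, adjusted p = 0.0218). Calls here and in the next list compare with 7.55% of all genes called higher in WT ONC and 12.7% in KO ONC. Of 4 genes of the NRF1 axis, which drives transcription of proteasome genes, Nfe2l2 rose in KO ONC (1.28, adjusted p = 0.000856), and Nfe2l1, the gene of NRF1 itself, was at -0.33 there (adjusted p = 0.387) and -0.19 in WT ONC (adjusted p = 0.683).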
